A study of Homo sapiens with 6 samples.

Results

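The SWI/SNF chromatin remodelling subunits were described through 10 genes of the human complex: SMARCA4, SMARCA2, ARID1A, ARID1B, ARID2, PBRM1, SMARCB1, SMARCC1, SMARCD1 and SMARCE1. They were chosen by symbol, and each of the 10 matched 1 row by its Ensembl identifier among the 60960 features of the deposited table. The 3 tested libraries came from NCI-H1975 cells, a human non-small cell lung cancer line, labelled with a small interfering RNA against GFPT2 (siGFPT2). The other 3 came from the same line labelled siNC, the control small interfering RNA. GFPT2 is an enzyme of the first step of the hexosamine pathway. The protocol text for RNA extraction names almonertinib, EGF and EGFR knockdown, which none of the 6 treatment labels carries. A single cell line was used, and nothing in the labels says that the replicates came from separate cultures, so p-values measure the spread between these libraries, which may be technical.

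SWI/SNF complexes use the energy of ATP to slide or evict nucleosomes, which opens promoters and enhancers to transcription factors. Each complex carries SMARCA4 or SMARCA2 as its motor, built onto a core of shared subunits, and its variant subunits set its form: ARID1A or ARID1B belong to the BAF form, and ARID2 and PBRM1 to the PBAF form. A further form, the non-canonical BAF, carries BRD9 and lacks SMARCB1 and SMARCE1. In lung cancer, SMARCA4, ARID1A and other subunit genes are recurrently mutated or lost.

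All levels below are in FPKM, which divides the fragments of a gene by its length in kilobases and by the counted fragments of the library. Depth lay between 21899321 and 27234880 counted fragments per library. GFPT2 itself had 8.94, 7.58 and 8.72 FPKM in the siGFPT2 libraries, against 10.1, 9.30 and 8.28 FPKM in the siNC libraries. Its groups overlapped, and its level did not differ beyond the spread (exact two-sided permutation p = 0.4, n = 3 each, smallest possible p = 0.1). Its log2 fold change on the log2(FPKM + 0.1) scale was -0.13 (95% interval -0.43 to 0.17) with all 6 libraries. Without siGFPT2 replicate 2 and siNC replicate 3, described next, the remaining values, 2 against 2, did not overlap. Of the SWI/SNF genes tested, 4 of the 9 members and 10 of the 17 other subunits did not overlap there either. That share over all features was not computed, so no result about these genes is drawn from the counts. The ARID1A to ARID1B ratio did not overlap there either. Its exact two-sided permutation p was 0.333, the smallest that 2 against 2 libraries can give. The log2 fold change of GFPT2 without those libraries was -0.14 (-0.35 to 0.08, limma adjusted p = 0.7200). With either set of libraries, a lower GFPT2 transcript level in the libraries labelled siGFPT2 did not pass the test. The labelled epithelial origin was checked with 7 markers, of which 7 reached 1 FPKM. Their summed level was 1634 to 2054 FPKM in siGFPT2 and 1586 to 2267 FPKM in siNC. Markers of other cell types were lower, though 2 of the 5 leukocyte, 0 of the 3 endothelial and 2 of the 4 fibroblast genes reached 1 FPKM in any library. Those of fibroblasts were COL1A1 and COL1A2, with means of 6.61 and 2.57 FPKM over the 6 libraries. The 5 leukocyte genes summed to 3.46 to 3.86 FPKM in siGFPT2 and 3.24 to 4.63 FPKM in siNC. The 3 endothelial genes summed to 0.256 to 0.405 FPKM in siGFPT2 and 0.232 to 0.276 FPKM in siNC, and the 4 fibroblast genes to 8.85 to 11.9 FPKM in siGFPT2 and 8.46 to 10.4 FPKM in siNC. In bulk RNA, fewer cells of a type and less RNA per cell cannot be told apart.

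Before any difference between groups, 1 library of each group stood apart from the rest. Over 10680 protein-coding genes, the log2 deviation from a gene's mean fell by 0.162 per doubling of transcript length in siGFPT2 replicate 2 and fell by 0.256 in siNC replicate 3, while the slopes of the 4 other libraries lay between 0.0817 and 0.146. Most members have long transcripts: 7 of the 9 tested exceeded 4628 bases, the upper quartile of those genes, as did 3 of the 17 other subunits tested. For 8 of the 9 members these libraries were the lowest of the 6, which was so for 35.4% of all features tested and for 78% of the tested protein-coding genes above that length. SMARCB1, the shortest member with a transcript of 1717 bases, was the exception and was highest in both, as were 29.8% of all features tested and 71.2% of the protein-coding genes up to 1915 bases, the lower quartile. Of the 17 other subunits, 8 were lowest and 4 highest in both of these libraries. With the length slope of each library as a covariate, limma called 0 of the 9 members, as it did without it.

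**Figure D1:**
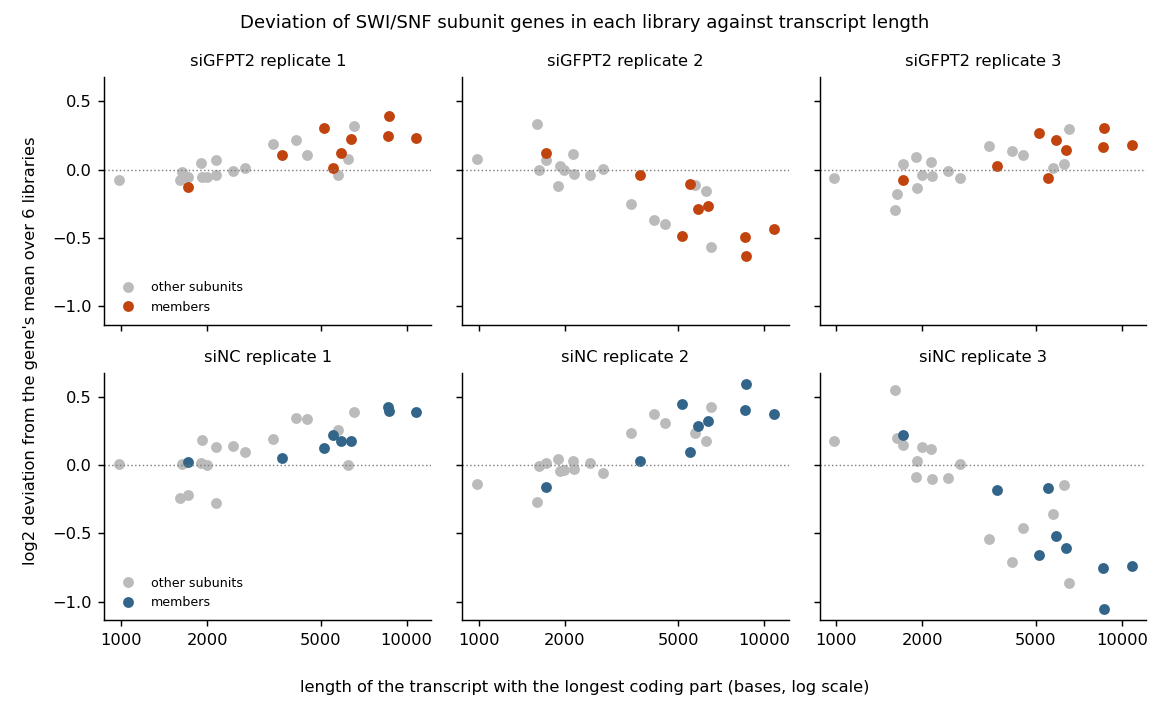
Log2 deviation of each SWI/SNF gene from its own mean over the 6 libraries, against the length in bases (log scale) of the transcript with the longest coding part in GENCODE 29, 1 panel per library. Coloured points are the 9 members tested and grey points the 17 other subunits tested. In siGFPT2 replicate 2 and siNC replicate 3 the long transcripts lie below 0, and in the 4 other libraries most of them lie above it.

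ARID1A and SMARCB1 stood on opposite sides in those libraries, ARID1A below the others and SMARCB1, alone of the tested members, above them. ARID2 fell further than ARID1A but had no entry in the promoter table used here. ARID1A had 0.612 of the mean of the other siGFPT2 libraries in siGFPT2 replicate 2, and 0.438 of the mean of the other siNC libraries in siNC replicate 3. SMARCB1 had 1.17 times that mean in siGFPT2 replicate 2 and 1.22 times that mean in siNC replicate 3. ARID1A was not the lowest of the remaining members throughout. In siGFPT2 replicate 2 and siNC replicate 3, ARID1B had 0.612 and 0.427 of these means, and PBRM1 0.575 and 0.505. The stretches just before the RefSeq starts of ARID1A and SMARCB1 on GRCh38.p14 are printed, with every GC box (GGGCGG, or CCGCCC on the other strand) in capitals. Those of the other members were not compared. Neither stretch covers an exon of GENCODE 29. The ARID1A stretch lies inside the span that GENCODE 29 gives the gene, which begins before the RefSeq start, and the SMARCB1 stretch ends just before its gene.
ARID1A, chr1:26695765-26696014, plus strand: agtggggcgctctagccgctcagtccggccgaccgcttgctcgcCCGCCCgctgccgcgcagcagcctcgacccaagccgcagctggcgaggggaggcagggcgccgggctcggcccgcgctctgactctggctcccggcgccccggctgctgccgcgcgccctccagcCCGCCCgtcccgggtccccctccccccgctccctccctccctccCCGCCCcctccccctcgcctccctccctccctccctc
SMARCB1, chr22:23786716-23786930, plus strand: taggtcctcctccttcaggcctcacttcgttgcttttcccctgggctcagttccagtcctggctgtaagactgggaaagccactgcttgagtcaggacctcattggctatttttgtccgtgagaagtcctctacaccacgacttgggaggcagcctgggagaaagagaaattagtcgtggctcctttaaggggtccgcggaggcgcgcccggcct
The 250 bases before ARID1A held 3 GC boxes, 30 CpG dinucleotides and 80.4% G and C, against medians of 11 CpG and 58.0% over 35116 RefSeq promoter windows of that length. At least 1 such box was present in 42.6% of those windows. The 215 bases before SMARCB1, cut where the first exon of GENCODE 29 begins, held 0 GC boxes, 9 CpG and 56.7% G and C, against medians of 9 CpG and 57.7%, and 38.3% of windows of that length held a box. These matches describe letters in a window, and no binding was measured. Any link between these stretches and the levels in those libraries was not tested. The transcripts of ARID1A and SMARCB1 also differ in length, at 8583 and 1717 bases.

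Of the ATPases, SMARCA4 was the most abundant member on the FPKM scale and SMARCA2 one of the least. SMARCA4 (ENSG00000127616; chromosome 19, 10960825 to 11079426, plus strand, GENCODE 29 on GRCh38), one of the alternative motors and often lost in lung cancer, had 25.6, 23.6 and 24.3 FPKM in the siGFPT2 libraries, against 29.5, 27.1 and 22.5 FPKM in the siNC libraries. It was transcribed in every library, from 8346 to 10113 reads. The groups overlapped, because siNC replicate 3 was the lowest of the 6 and the other siNC libraries were the highest. Its mean was 24.5 ± 1.03 FPKM in siGFPT2 and 26.4 ± 3.58 FPKM in siNC (SD, n = 3 each), and the log2 fold change on the log2(FPKM + 0.1) scale was -0.10, with a 95% interval from -0.41 to 0.21.

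SMARCA2 (ENSG00000080503; chromosome 9, 1980290 to 2193624, plus strand), the alternative motor on which cells without SMARCA4 depend, had 1.77, 1.31 and 1.89 FPKM in siGFPT2, against 1.84, 1.99 and 1.10 FPKM in siNC. The lowest libraries were siNC replicate 3 and siGFPT2 replicate 2, and the groups overlapped. Means were 1.65 ± 0.308 FPKM in siGFPT2 and 1.64 ± 0.478 FPKM in siNC (SD, n = 3 each), and the log2 fold change was 0.04 (95% interval -0.59 to 0.66). SMARCA4 made up 92.8% to 95.3% of the FPKM of the ATPase pair over the 6 libraries. The SMARCA4 to SMARCA2 ratio of FPKM was 14.5, 18.1 and 12.9 in siGFPT2, against 16.1, 13.6 and 20.5 in siNC. It was highest in siNC replicate 3 and siGFPT2 replicate 2, and did not differ between the groups beyond the spread (log2 difference -0.14, exact two-sided permutation p = 0.6, adjusted over 3 ratios 0.7).

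Transcripts that mark SMARCA4-deficient thoracic tumours were checked beside SMARCA4. SOX2, a stem cell factor, had 6.69 ± 0.594 FPKM in siGFPT2 and 7.15 ± 0.435 FPKM in siNC (SD, n = 3 each). SALL4, another stem cell factor, had 0.413 to 0.632 FPKM in siGFPT2 and 0.361 to 0.570 FPKM in siNC, and the progenitor surface protein gene CD34 had at most 0.0430 FPKM. SYP, a synaptic vesicle protein used as a neuroendocrine marker, had 0.779, 1.07 and 1.09 FPKM in siGFPT2, against 1.17, 1.47 and 1.56 FPKM in siNC. The groups of SYP did not overlap, at levels near 1 FPKM, and its log2 fold change of -0.48 (-0.97 to 0.00) did not pass limma's test (unadjusted p = 0.0504, adjusted p = 0.9999). Of this list of 4, 2 genes were tested and 0 were called.

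**Figure D2:**
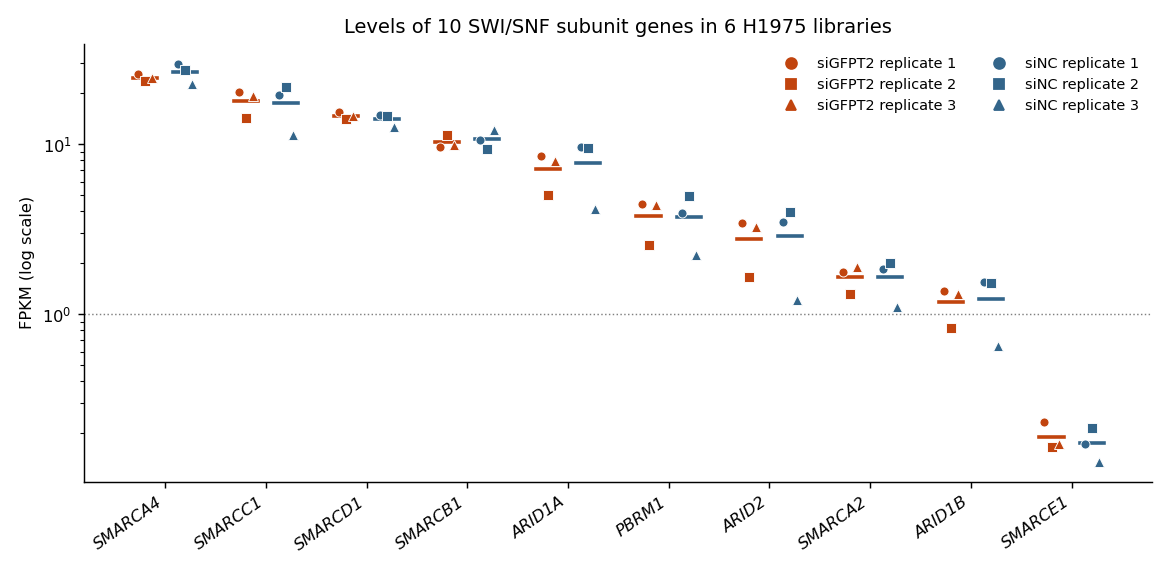
FPKM (log scale) of the 10 members in each library, in order of mean level; points are single libraries, marked by replicate, and bars are group means, with siGFPT2 left of siNC. The dotted line marks 1 FPKM, the lowest mean that was tested; SMARCE1 lies below it in all 6 libraries, and the low points of most members are siGFPT2 replicate 2 and siNC replicate 3.

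Among the variant subunits of the BAF form, ARID1A was well above ARID1B on the FPKM scale. ARID1A (ENSG00000117713; chromosome 1, 26693236 to 26782110, plus strand), a DNA-binding scaffold of BAF and one of the most often mutated SWI/SNF genes in cancer, had 8.43, 5.02 and 7.98 FPKM in siGFPT2, against 9.57, 9.44 and 4.16 FPKM in siNC. Each group held 1 low library, and the groups overlapped. The means were 7.14 ± 1.85 FPKM in siGFPT2 and 7.72 ± 3.09 FPKM in siNC (SD, n = 3 each), and the log2 fold change was -0.05 (95% interval -0.92 to 0.81). Without siGFPT2 replicate 2 and siNC replicate 3 ARID1A had a log2 fold change of -0.21 (-0.42 to -0.01), which limma gave a p of 0.0457 before adjustment and 0.7196 after it.

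ARID1B (ENSG00000049618; chromosome 6, 156776020 to 157210779, plus strand), its paralogue and alternative in the same position of the complex, had 1.37, 0.821 and 1.32 FPKM in siGFPT2, against 1.53, 1.51 and 0.649 FPKM in siNC. The same libraries were low, and the groups overlapped. Its log2 fold change came to -0.01 (-0.87 to 0.85), or -0.17 (-0.55 to 0.21) without those libraries. The ARID1A to ARID1B ratio of FPKM hardly varied, at 6.17, 6.11 and 6.06 in siGFPT2 against 6.25, 6.24 and 6.41 in siNC. Its groups did not overlap, but the log2 difference was only -0.04 (a ratio 3.0% lower in siGFPT2), and counting alone gives each library's log2 ratio a standard error of 0.044 to 0.064. The exact two-sided permutation p was 0.1, the smallest that 3 against 3 libraries can give, and 0.3 adjusted over 3 ratios.

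In the PBAF form, ARID2 (ENSG00000189079; chromosome 12, 45729665 to 45908040, plus strand), the counterpart of ARID1A there, had 3.45, 1.64 and 3.24 FPKM in siGFPT2, against 3.46, 3.98 and 1.20 FPKM in siNC. No other member spread so widely: siNC replicate 3 stood at 0.323 of the mean of its group's other libraries and siGFPT2 replicate 2 at 0.490. The groups overlapped, and the log2 fold change of 0.04 had an interval from -1.12 to 1.20, so a 2-fold change in either direction lay within it. PBRM1 (ENSG00000163939; chromosome 3, 52545352 to 52685917, minus strand), whose bromodomains read acetylated histones, had 4.45, 2.53 and 4.34 FPKM in siGFPT2, against 3.91, 4.93 and 2.23 FPKM in siNC. Here too the groups overlapped with 1 low library each, and the log2 fold change was 0.06 (-0.75 to 0.86).

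Transcripts of the BAF and PBAF forms were set side by side as the ratio of ARID1A plus ARID1B to ARID2. This ratio was 2.84, 3.57 and 2.87 in siGFPT2, against 3.21, 2.75 and 4.01 in siNC. The amounts of the complexes themselves were not measured. The high values were again those of siGFPT2 replicate 2 and siNC replicate 3. Between groups the log2 ratio differed by -0.10, within the spread (exact two-sided permutation p = 0.7, adjusted over 3 ratios 0.7). ARID1A took 63.2% to 69.3%, ARID1B 10.1% to 11.0% and ARID2 19.95% to 26.6% of the FPKM of these genes over the 6 libraries. Per kilobase of 1 transcript (the one with the longest coding part in GENCODE 29) instead of all exons, ARID1B took 21.8% to 23.1% and stood above ARID2, with 13.8% to 18.8%. The reads there were still those of all exons, which favours genes with much exon sequence outside that transcript.

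**Figure D3:**
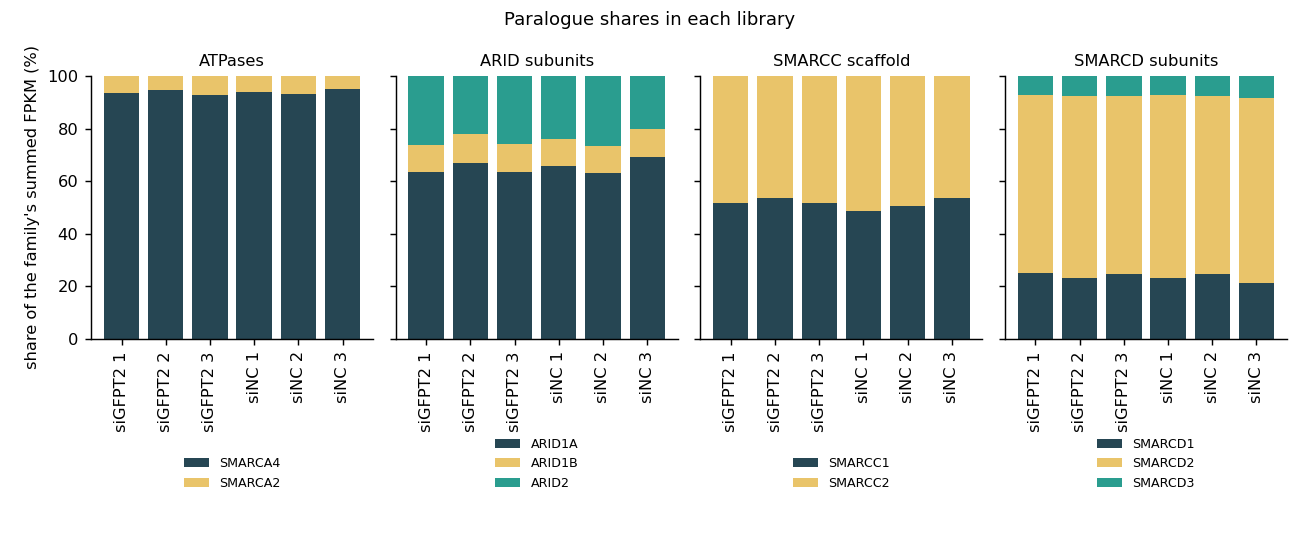
Share (%) of each paralogue in the summed FPKM of its family, 1 stacked bar per library, with the 3 siGFPT2 libraries left of the 3 siNC libraries. SMARCA4 holds at least 92.8% of the ATPase pair in each library, and the ARID2 share is smallest in siGFPT2 replicate 2 and siNC replicate 3, at 21.9% and 19.95%.

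Of the core subunits, SMARCC1 (ENSG00000173473; chromosome 3, 47585272 to 47782106, minus strand), a scaffold on which the core assembles, had 20.1, 14.2 and 19.0 FPKM in siGFPT2, against 19.4, 21.5 and 11.2 FPKM in siNC. Its groups overlapped around 1 low library each, and the log2 fold change was 0.07 (95% interval -0.57 to 0.71). Its paralogue SMARCC2 had 18.7, 12.4 and 17.6 FPKM in siGFPT2, against 20.4, 20.9 and 9.77 FPKM in siNC, with a log2 fold change of -0.01 and low values in the same libraries. SMARCC1 took 48.7% to 53.5% of the pair's FPKM over the 6 libraries, but 33.8% to 38.1% per kilobase of 1 transcript, so which of the paralogues is more abundant depends on the length used.

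SMARCB1 (ENSG00000099956; chromosome 22, 23786931 to 23838008, plus strand), a core subunit that contacts the nucleosome and is lost in rhabdoid tumours, had 9.53, 11.3 and 9.86 FPKM in siGFPT2, against 10.6, 9.33 and 12.1 FPKM in siNC. The high libraries here were those that were low for the long members, and the groups overlapped. Means were 10.2 ± 0.949 FPKM in siGFPT2 and 10.7 ± 1.40 FPKM in siNC (SD, n = 3 each), and the log2 fold change was -0.06 (-0.38 to 0.27). Of its exon bases, 17.7% are shared with DERL3 on the opposite strand in GENCODE 29, a gene at 0.662 to 0.996 FPKM; whether the libraries keep strand is not given in the sources used here, so reads there cannot be told apart.

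SMARCD1 (ENSG00000066117; chromosome 12, 50084972 to 50100712, plus strand), which links the complex to transcription factors, was the steadiest member, with 15.4, 13.9 and 14.6 FPKM in siGFPT2, against 14.8, 14.6 and 12.6 FPKM in siNC. The groups overlapped. A log2 fold change of 0.06 was estimated, and its interval from -0.20 to 0.33 was the narrowest among the members. SMARCD2, its paralogue known for a role in granulocytes, was the most abundant of the family, with 42.1, 42.0 and 40.0 FPKM in siGFPT2, against 44.5, 40.1 and 41.9 FPKM in siNC. It took 67.9% to 70.6% of the family's FPKM over the 6 libraries, with SMARCD1 at 21.2% to 24.95% and the muscle-linked SMARCD3 at 6.93% to 8.20%.

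SMARCE1 (ENSG00000073584; chromosome 17, 40624962 to 40648864, minus strand), a core subunit with a DNA-binding HMG domain, was listed far below the other members. It had 0.231, 0.165 and 0.171 FPKM in siGFPT2, from 97, 83 and 70 reads, against 0.171, 0.213 and 0.135 FPKM in siNC, from 70, 86 and 61 reads. The groups overlapped, and the gene missed the minimum mean of 1 FPKM. With no filter on low values, limma gave it a log2 fold change of 0.09 (95% interval -0.50 to 0.67). This level is uncertain. In GENCODE 29 a second protein-coding gene on the same strand, AC073508.2, shares 3697 of its exon bases and 70.5% of its coding bases, and that gene was listed at 0 FPKM in all 6 libraries. How the authors' counting treated reads that fall in both genes is not given in the sources used here. The 7 annotated SMARCE1 pseudogenes reached at most 0.746 FPKM in any library.

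On the deposited FPKM scale the members ranked, from high to low, as SMARCA4, SMARCC1, SMARCD1, SMARCB1, ARID1A, PBRM1, ARID2, SMARCA2, ARID1B and SMARCE1. Only 3 of the 9 pairs of neighbours had library values that did not overlap, namely SMARCA4 over SMARCC1, SMARCD1 over SMARCB1, and ARID1B over SMARCE1. Without siGFPT2 replicate 2 and siNC replicate 3 there were 7 such pairs. The length behind a deposited FPKM spans all exons of the gene and not 1 transcript. For SMARCB1 it was 16526 bases, 9.63 times its transcript, and for the other members it was 1.20 to 4.25 times. Levels per kilobase of 1 transcript divide the reads of all exons by that transcript's length alone. They therefore rise by these same factors, and how many reads fall outside the transcript was not measured. Per kilobase of 1 transcript SMARCB1 came first, with 98.5 ± 9.13 fragments per kilobase, scaled as FPKM, in siGFPT2 and 103 ± 13.5 in siNC (SD, n = 3 each), above SMARCA4, with 68.7 ± 2.88 in siGFPT2 and 74.1 ± 10.1 in siNC. SMARCE1 stayed last on that scale, at 0.402 to 0.689.

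**Figure D4:**
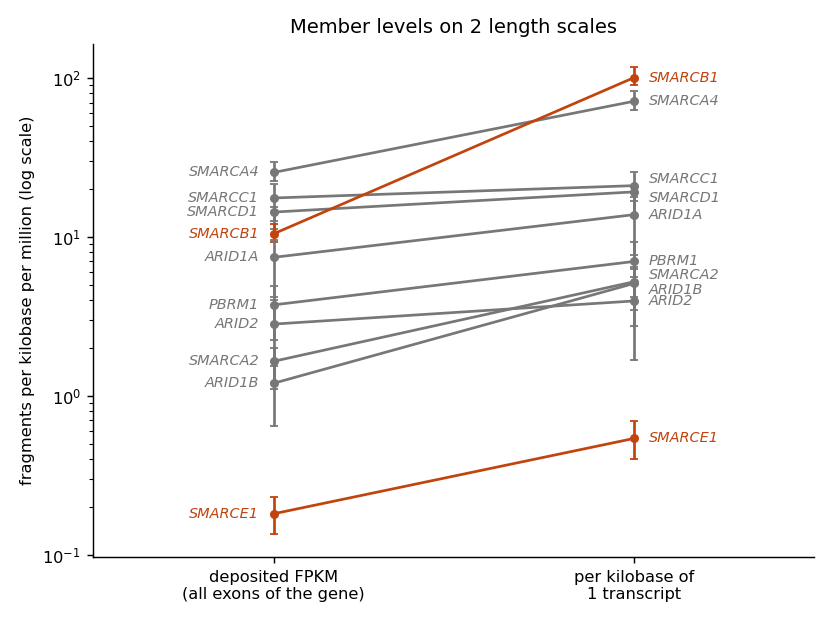
Mean level of each member over the 6 libraries (points, log scale) with the lowest and highest library (bars), as deposited FPKM on the left and per kilobase of the transcript with the longest coding part on the right. On the right, the reads of all exons are divided by the length of that transcript alone. SMARCB1 moves from the fourth place to the first, with means of 10.5 and 101, and SMARCE1 is last on both scales, with 0.181 and 0.539.

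As a list, the members showed no difference between the groups that passed the test. limma on log2(FPKM + 0.1) called 0 of the 9 tested members at an adjusted p under 0.05 and 0 at an unadjusted p under 0.05, against 0% and 0.651% of the 12896 features tested, and limma-voom on recovered reads also gave 0 and 0. Every adjusted p was 0.9999. The groups overlapped for each of the 9, and failed to overlap for 3.53% of all features tested. Log2 fold changes lay between -0.10 and 0.07, with 5 above 0 and 4 below, and their median of 0.04 stood beside a median of 0.03 over all features tested. What the data allow differs by gene: the 95% interval ran from -24.5% to 15.4% for SMARCA4, -23.2% to 20.6% for SMARCB1 and -13.0% to 25.7% for SMARCD1, but from -47.0% to 75.5% for ARID1A and -53.9% to 129.9% for ARID2.

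Without siGFPT2 replicate 2 and siNC replicate 3, limma again called 0 of 9 members (0% of all features tested), and 1 member, ARID1A, had an unadjusted p under 0.05, against 5.82% of all features tested. The median of the members was then -0.06, with 7 of 9 below 0, beside a median of 0.03 over all features tested. SMARCA4 had -0.18 (-0.38 to 0.02) and ARID2 -0.15 (-0.44 to 0.14). SMARCA2, SMARCC1 and ARID2 were above 0 with all 6 libraries and below 0 in this smaller comparison of 2 against 2.

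**Figure D5:**
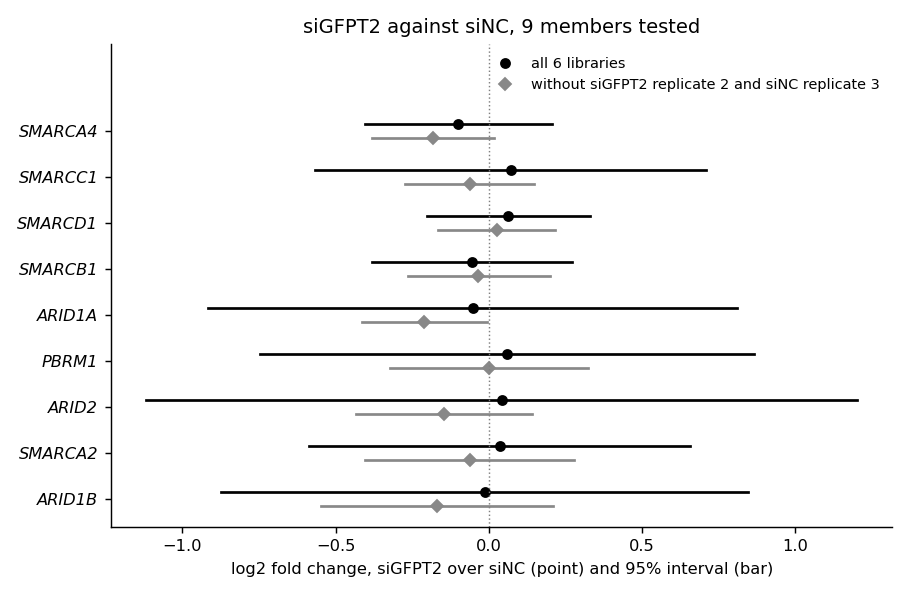
Log2 fold change of siGFPT2 over siNC for the 9 members tested (points) with 95% intervals of limma (bars), with all 6 libraries in black and without siGFPT2 replicate 2 and siNC replicate 3 in grey. Each black interval spans 0, and the grey interval of ARID1A, from -0.42 to -0.01, lies just below it.

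The 21 other subunits of the complex were read in the same way, and 17 passed the filter. Of these, 5 had log2 fold changes above 0 and 12 below, with a median of -0.03, and 0 were called by limma, 0 at an unadjusted p under 0.05. Without siGFPT2 replicate 2 and siNC replicate 3 limma again called 0, and 2 of 17 had an unadjusted p under 0.05, against 5.82% of all features tested. These were BICRA of the non-canonical form, with a log2 fold change of -0.26 (-0.50 to -0.02), and SS18L1, with -0.22 (-0.42 to -0.02), each at an adjusted p of 0.7196. With all 6 libraries, the smallest unadjusted p of limma among the 17 was 0.454, for DPF1, a neuronal PHD finger subunit. DPF1 had 0.955 ± 0.0715 FPKM in siGFPT2 and 1.06 ± 0.0936 FPKM in siNC (SD, n = 3 each, log2 fold change -0.13). ACTB, the actin that sits in the complex and also forms the cytoskeleton, had 2314 ± 129 FPKM in siGFPT2 and 2503 ± 204 FPKM in siNC (log2 fold change -0.11). Where a family has a neuronal paralogue, another member held most of its FPKM in all 6 libraries. ACTL6A took 97.4% to 98.2% over the neuronal ACTL6B, DPF2 took 85.0% to 88.5% over DPF1 and DPF3, and SS18 took 70.3% to 74.3% over SS18L1. BRD9 of the non-canonical form had 5.62 ± 0.249 FPKM in siGFPT2 and 5.64 ± 0.474 FPKM in siNC, and BRD7 of PBAF had 12.2 ± 0.641 FPKM in siGFPT2 and 11.6 ± 1.64 FPKM in siNC (SD, n = 3 each), though 42.3% of the BRD7 exon bases are shared with ADCY7 on the opposite strand.

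Other chromatin machines gave the same count of calls, 0 in each list by limma. This held with all 6 libraries and without siGFPT2 replicate 2 and siNC replicate 3. At an unadjusted p under 0.05 the smaller comparison had 0 of 10 ISWI genes and 1 of 19 CHD and NuRD genes. It had 1 of 14 INO80, SRCAP and EP400 genes and 1 of 18 Polycomb genes, against 5.82% of all features tested. All 6 libraries, to which the values below belong unless stated, gave 0 in each list. For the ISWI remodellers, which space nucleosomes, 9 of the 10 tested genes lay above 0 and 1 below, with a median log2 fold change of 0.13. POLE3, a histone-fold subunit, had 26.0 ± 0.232 FPKM in siGFPT2 and 23.9 ± 1.55 FPKM in siNC, and BAZ1A had 9.36 ± 1.29 FPKM in siGFPT2 and 8.08 ± 1.88 FPKM in siNC. BAZ1B was the most abundant, with 42.6 ± 7.40 FPKM in siGFPT2 and 41.3 ± 9.87 FPKM in siNC (SD, n = 3 each).

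Among CHD remodellers and NuRD, which joins remodelling to histone deacetylation, 12 of 19 lay above 0 and 7 below (median 0.03). CHD1 had a log2 fold change of 0.24, the deacetylase HDAC2 0.10, and GATAD2A, the most abundant on the FPKM scale, -0.03. For INO80, SRCAP and EP400, which handle the histone variant H2A.Z, the counts were 9 of 14 above 0 and 5 below (median 0.01), with 0.19 for ACTR8, 0.18 for UCHL5 and -0.15 for the abundant helicase RUVBL2. The Polycomb group, whose silencing SWI/SNF opposes, had 10 of 18 above 0 and 8 below (median 0.02). Its members BMI1 and PCGF6 had 0.30 and 0.22, and RING1, the most abundant, -0.13. Without siGFPT2 replicate 2 and siNC replicate 3, BMI1 had 0.489 (0.084 to 0.895, limma unadjusted p = 0.0253, adjusted p = 0.7196). With all 6 libraries, all features tested had 7922 of 12896 above 0.

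The profile of the members over the 6 libraries was compared with 6738 other genes with a mean of at least 5 FPKM. As log2 deviations, the mean profile of the 9 tested members was 0.17, -0.29 and 0.13 in siGFPT2 replicates 1, 2 and 3, and 0.22, 0.27 and -0.50 in siNC replicates 1, 2 and 3. It was low in siGFPT2 replicate 2 and siNC replicate 3 and high elsewhere. The nearest genes by root mean square difference on the log2 scale over the 6 libraries were FAM168B (0.0153), SLC41A1 (0.0206), NUMB (0.0240) and ARHGAP35 (0.0241). Their transcripts had 5285, 4997, 3588 and 8889 bases. They were picked as the closest of the 6738, which the members were not, and shared regulation was not tested. Among the members, SMARCA2 (0.044) and SMARCC1 (0.060) lay closest to their common mean, and SMARCB1 (0.414) and ARID2 (0.329) farthest from it.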

How the data were processed

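The authors deposited FPKM per gene for the 6 libraries. The tools named in the submitters' processing notes are HISAT2, featureCounts and DESeq2; their versions, the genome build, the annotation and the strandedness were not given in the sources used here. Per the labels' protocols, mRNA was enriched on oligo(dT) and sequenced as paired ends. Whole reads within 0.0001 were recovered from the steps of the FPKM values for 36981 features above 0, of which 53.9% came out whole at the exon length of GENCODE 29 and the others at the smallest length that gave whole reads, so this is partly built in. Recovered reads summed to 99.77% to 99.81% of the depth.

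limma 3.58.1 in R 4.3.3 was fitted to log2(FPKM + 0.1), with eBayes, a mean-variance trend and group as the only term, over the 12896 features whose mean reached 1 FPKM, with Benjamini-Hochberg adjustment over all of them (threshold 0.05). Fold changes on this scale understate those of low genes. Ratios had exact permutation tests (scipy 1.17.1). The code was tested on simulated data. Pairs of libraries within a group differed by more than sampling noise (chi-square per degree of freedom 2.51 to 91.2). Each library was kept as 1 replicate, though such differences do not show that the libraries came from separate cultures.

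Named genes were all 10 members, GFPT2, and from each other list the 2 smallest p and the most abundant, with any of the other subunits, plus the 4 nearest profiles. Genes named outside this rule (SALL4, CD34, COL1A1, COL1A2 and the genes sharing exons) were chosen after their values were seen. The members and lists were chosen with earlier results of these data known. Symbols came from a table of gene names, which matched 60463 of 60605 Ensembl identifiers, and RefSeq promoters were found for 8 of the 10 members.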

Additional observations from a re-analysis of the deposited data

How the results depend on the processing

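Over 17 alternatives (pseudocounts of 1 and 0.01, no filter or a minimum of 5 FPKM, median centring, quantile normalization, the replicate block, a length slope per library, limma-voom with and without the filter, each library left out, and siNC replicate 3 with siGFPT2 replicate 2 left out), 0 members and 0 features in all were called. limma-voom, the order alternatives and the ratios per kilobase of 1 transcript were chosen after seeing the data. The length slope, and leaving out siNC replicate 3 with siGFPT2 replicate 2, were drawn from how these same libraries differed. SMARCA4 kept its sign in all of them (-0.21 to -0.01). SMARCA2 turned to -0.018 with median centring, -0.027 with quantile normalization, -0.002 with the length slope and -0.062 without both libraries; ARID2 turned to -0.011, -0.017, -0.036 and -0.147 there, and SMARCC1 to -0.063 without both libraries. Leaving out 1 library turned the sign of 8 of 9 members: the ranges were -0.215 to 0.188 for SMARCA2, -0.443 to 0.180 for ARID1A, -0.385 to 0.202 for ARID1B, -0.475 to 0.371 for ARID2, -0.256 to 0.317 for PBRM1, -0.148 to 0.040 for SMARCB1, -0.216 to 0.250 for SMARCC1 and -0.010 to 0.106 for SMARCD1. Without siNC replicate 3 alone, 6 signs turned. The log2 ratio of SMARCA4 to SMARCA2 ranged from -0.277 to 0.018 and that of ARID1A plus ARID1B to ARID2 from -0.222 to 0.049, each above 0 only without siNC replicate 3; ARID1A to ARID1B ranged from -0.051 to -0.031 with libraries left out, and was -0.030 with a pseudocount of 1 FPKM, where its exact permutation p was 0.8 in place of 0.1. The count of neighbours in the order that did not overlap was 3 to 4 with 1 library left out and 7 without both. The cause of these shifts was not tested.

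In their deviations from the group mean, same-numbered libraries correlated at 0.473, -0.719 and -0.57, and siGFPT2 replicate 2 correlated best with siNC replicate 3 (0.792). These last are the libraries that stood apart by transcript length. The correlations therefore cannot show whether same-numbered libraries shared a culture or day. With the replicate block, limma called 0 features, with 63 at an unadjusted p under 0.05, against 84 without it. SMARCE1 rested on 61 to 97 reads. GFPT2 stayed below 0 in its 17 alternatives (-0.21 to -0.06), with its smallest unadjusted p, 0.0623, under the length slope (adjusted p = 0.7687).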

Other observations

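SS18 and SS18L1, alternative partners of the BAF and non-canonical forms, were the 1 of 11 paralogue families examined whose shares of FPKM did not overlap between the groups. SS18L1 took 26.6%, 25.7% and 26.7% of the pair in siGFPT2, against 29.7%, 28.6% and 28.7% in siNC. Per kilobase of 1 transcript it took 18.7%, 18.0% and 18.8% in siGFPT2, against 21.2%, 20.4% and 20.4% in siNC. The pair was singled out after its values were seen and the difference in shares was not tested. How often such shares fail to overlap over other gene pairs was not computed. The groups of the ARID1A to ARID1B ratio did not overlap either. Its exact two-sided permutation p was 0.1, the smallest that 3 against 3 libraries can give. The level of SS18L1 had an unadjusted p of 0.0446 in limma with the length slope as a covariate, at an adjusted p of 0.7687, and 0.650 without it. With that covariate, 566 of the 12896 features tested had an unadjusted p under 0.05.

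Other remodeller genes shared exon bases with a same-strand protein-coding gene listed at 0 FPKM in all 6 libraries, as SMARCE1 did. CHD4, the main ATPase of NuRD, had 1.11 ± 0.280 FPKM in siGFPT2 and 1.15 ± 0.475 FPKM in siNC (SD, n = 3 each), and 93.1% of its coding bases are shared with AC006064.6 in GENCODE 29. SRCAP had 0.442 ± 0.194 FPKM in siGFPT2 and 0.448 ± 0.240 FPKM in siNC, with 93.8% of coding bases shared with AC106886.5. MBD3 of NuRD, with 79.5% of its coding bases shared with AC005943.1, had 15.7 ± 2.63 FPKM in siGFPT2 and 16.6 ± 4.30 FPKM in siNC (SD, n = 3 each), and 9.8% of all its exon bases are shared. INO80B had 0.686 ± 0.0821 FPKM in siGFPT2 and 0.610 ± 0.103 FPKM in siNC (SD, n = 3 each), with 97.3% of coding bases shared with INO80B-WBP1. These genes were chosen after their values were seen.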
